A study of Mus musculus with 8 samples.

Results

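Genes of the unfolded protein response and the integrated stress response were followed in the hepatocyte line AML12, in cells with stable Zfp125 expression and in cells carrying the empty vector (EV). Zfp125 is a zinc finger gene. Each group had 4 samples, each on 1 Affymetrix MoGene 2.0 ST array. AML12 comes from the liver of a mouse transgenic for transforming growth factor alpha. Cells of both groups had undergone G418 selection and were grown in control medium. The sources used here state neither the promoter that drives Zfp125 nor whether a group's samples were separate cultures, clones or pools. The p-values therefore cover the spread among these 8 samples alone, and that spread may be a technical one. As 0 transcript clusters carry the name Zfp125, the expressed gene itself gave no check of the labels.

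The 34 genes were chosen by symbol, with earlier results of these data known, and each was found in the platform annotation. They lay on 35 of the 41345 transcript clusters, the units in which the array reports expression. Of these genes, 33 had a cluster that carries their symbol alone and were tested among 22180 genes. Pdia4 shares its cluster with the microRNA gene Mir704 and was read from a fit over all clusters. Edem1 had a second, dimmer cluster, and the brightest cluster of a gene was used. By role, 14 genes are chaperones and folding enzymes of the endoplasmic reticulum (ER), 3 act in ER-associated degradation, 4 are ER stress sensors and their transcription factors, and 13 belong to the axis of the transcription factors ATF4 and CHOP. All values are on the log2 scale; a change is Zfp125 minus EV with its standard error, and means are given with their SD (n = 4 arrays in each group).

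The unfolded protein response adjusts the folding capacity of the ER to the load of secretory proteins, which is high in hepatocytes. The sensor encoded by Ern1 splices the mRNA of Xbp1, the sensor Atf6 is cut to release a transcription factor, and the kinase encoded by Eif2ak3 phosphorylates the initiation factor eIF2. Phosphorylated eIF2, which other kinases also make when amino acids or heme run short, lowers general translation while it favours that of Atf4 and Atf5; this shared arm is the integrated stress response. XBP1 and ATF6 raise chaperone and degradation genes, whereas ATF4 raises CHOP (Ddit3), amino acid synthesis genes and stress regulators.

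In Zfp125 cells 4 of the 33 tested genes fell and 0 rose at an adjusted p under 0.05 (limma, Benjamini-Hochberg over all 22180 genes), against 1.08% of all genes called in either direction 0.636% called lower and 0.446% called higher. They were Nupr1 and Atf5 of the ATF4 axis and Sdf2l1 and Creld2 of the ER lumen. At an unadjusted p under 0.05, 8 of the 33 were lower and 0 higher, where 5.5% of all genes were lower and 5.43% higher. In 8 genes every Zfp125 array lay below every EV array, and in 0 above (3.58% and 3.71% of all genes). As the genes were chosen with earlier results of these data known, these comparisons with all genes are not an independent test. The median change of the 33 was -0.08 and that of all genes -0.00. The median of the 33 was -0.05 without Zfp125 replicate 2 and lay between -0.07 and -0.11 in the other omissions of 1 array. All 33 had a mean level above the median of all clusters, 4.34, while 8982 of the 22180 genes lay below it. Among the 13197 genes above that level 0.985% were called lower, 6.24% were lower at an unadjusted p under 0.05 and 4.7% had lower, non-overlapping groups. In such bulk samples a lower level per cell and fewer cells with the transcript cannot be told apart.

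**Figure D1:**
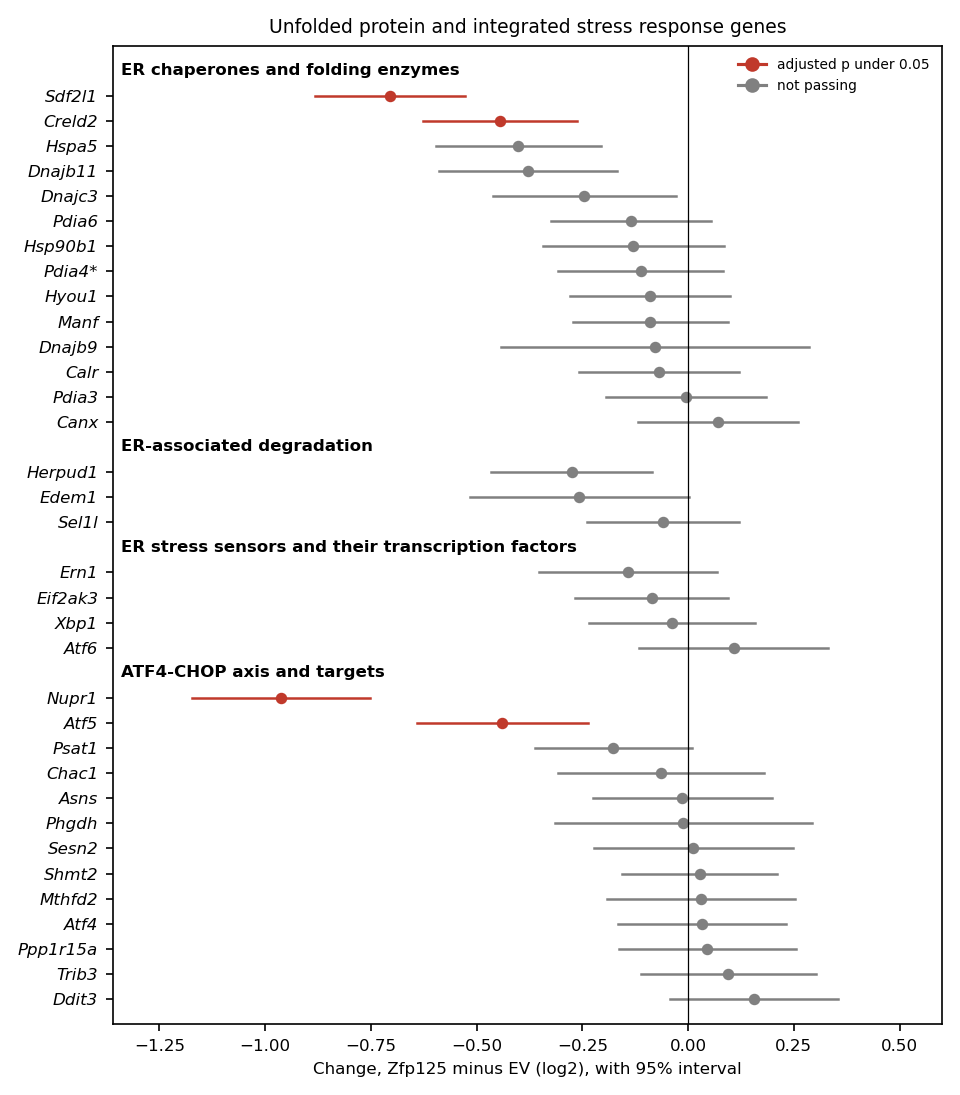
Change of each gene, Zfp125 minus EV on the log2 scale, with its 95% interval from limma, by role; red marks an adjusted p under 0.05, and the asterisk marks the cluster that Pdia4 shares with Mir704. The 4 red genes are Sdf2l1 at -0.70, Creld2 at -0.44, Nupr1 at -0.96 and Atf5 at -0.44, while Atf4 (0.03), Ddit3 (0.16), Xbp1 (-0.04) and Canx (0.07) lie near 0.

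Hspa5 encodes BiP, the HSP70 chaperone of the ER that also holds the stress sensors inactive. It had 8.09, 8.06, 8.26 and 8.21 in Zfp125 cells, against 8.66, 8.47, 8.60 and 8.50 in EV cells. All Zfp125 arrays lay below the lowest EV array, by 0.20. The change of -0.40 ± 0.09 (95% interval -0.60 to -0.21) did not pass the test over all genes (adjusted p = 0.0558; unadjusted p = 6.46e-04, limma).

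Several cofactors of BiP were measured beside it. Sdf2l1, an ER protein that works with BiP cochaperones and keeps folding intermediates soluble, had 6.37, 6.26, 6.33 and 6.31 in Zfp125 cells, against 7.04, 7.01, 7.07 and 6.96 in EV cells. The groups were 0.59 apart at their nearest arrays, while the SD was 0.04 in Zfp125 cells and 0.05 in EV cells. Sdf2l1 fell by 0.70 ± 0.08, a 1.63-fold lower level (adjusted p = 7.84e-04, limma), and was the 24th of 22180 genes by p. It passed in each of 18 alternatives, with adjusted p-values of up to 0.0129.

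Dnajb11 encodes ERdj3, the cochaperone that hands unfolded proteins to BiP. Its levels were 6.57, 6.53, 6.76 and 6.76 in Zfp125 cells and 7.11, 6.96, 7.15 and 6.91 in EV cells. The groups did not overlap, and the change of -0.38 ± 0.10 did not pass (adjusted p = 0.10, limma). Dnajc3, which encodes the cochaperone p58IPK, had 8.22 ± 0.10 in Zfp125 cells and 8.47 ± 0.16 in EV cells, with overlapping arrays and a change of -0.25 ± 0.10 (adjusted p = 0.373). Dnajb9, the gene of ERdj4, varied most between arrays of a group, with 4.66 to 5.29 in Zfp125 cells and 4.51 to 5.32 in EV cells, and a change of -0.08 ± 0.17. Hyou1, which encodes the nucleotide exchange factor GRP170, and Manf, a secreted ER protein that binds BiP, each had a change of -0.09 ± 0.09.

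Creld2 encodes an ER protein of the protein disulfide isomerase type that ER stress induces. It had 7.54, 7.56, 7.62 and 7.60 in Zfp125 cells, against 8.13, 8.01, 7.96 and 7.99 in EV cells, with 0.34 between the nearest arrays. Creld2 fell by 0.44 ± 0.08, a 1.36-fold lower level (adjusted p = 0.0235, limma). The change was -0.41 to -0.47 when 1 array was left out, but it passed only without EV replicate 3 (adjusted p = 0.0461) and not in the other 7 omissions (adjusted p up to 0.0821). Those fits have fewer arrays. With all 8 arrays the call was also lost with all clusters tested (adjusted p = 0.0826, limma) and with the replicate number as a block (0.0765).

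The remaining folding genes did not pass. They are the lectin chaperones of glycoproteins Calr and Canx, Hsp90b1, the ER member of the HSP90 family, and the disulfide isomerases Pdia3, Pdia4 and Pdia6. Canx had 10.03 ± 0.05 in Zfp125 cells and 9.96 ± 0.10 in EV cells, a change of 0.07 ± 0.09 (95% interval -0.12 to 0.26), and was the 1 folding gene tested with a change above 0. Calr had a change of -0.07 ± 0.09 and Pdia3 of -0.01 ± 0.09 (95% interval -0.20 to 0.18). Hsp90b1 ranged over 9.91 to 10.09 in Zfp125 cells and over 9.90 to 10.28 in EV cells, a change of -0.13 ± 0.10. Pdia6 had a change of -0.14 ± 0.09, and the cluster shared by Pdia4 and Mir704 had 7.997 ± 0.036 in Zfp125 cells and 8.11 ± 0.12 in EV cells, a change of -0.11 ± 0.09. Of the 13 folding genes tested, 2 were called lower (0.636% of all genes) and 5 were lower at an unadjusted p under 0.05 (5.5%). A change below 0 was found in 12 of them (50.8% of all genes), and the median was -0.13.

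Promoter sequence is shown for Creld2 and Sdf2l1, the folding genes that fell, and for Hspa5, which did not pass but is a classic target of the response, since the response acts through short elements near the transcription start. The 250 bases before each start were taken from RefSeq (GRCm38.p6) for the 31 of 34 genes that had a window; Atf6, Hyou1 and Manf had none. Several of these genes have an ER stress response element (ERSE), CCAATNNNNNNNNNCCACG, which ATF6 and XBP1 are known to use with the factor NF-Y. Both strands were searched for the exact letters, and capitals below mark the letters that the motif fixes.
Creld2 (chr15:88819396-88819645, plus strand): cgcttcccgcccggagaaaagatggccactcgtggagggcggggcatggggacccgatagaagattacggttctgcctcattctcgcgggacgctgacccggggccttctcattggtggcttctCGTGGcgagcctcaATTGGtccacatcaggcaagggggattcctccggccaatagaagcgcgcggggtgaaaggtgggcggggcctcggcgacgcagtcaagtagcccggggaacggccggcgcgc
Hspa5 (chr2:34771840-34772089, plus strand): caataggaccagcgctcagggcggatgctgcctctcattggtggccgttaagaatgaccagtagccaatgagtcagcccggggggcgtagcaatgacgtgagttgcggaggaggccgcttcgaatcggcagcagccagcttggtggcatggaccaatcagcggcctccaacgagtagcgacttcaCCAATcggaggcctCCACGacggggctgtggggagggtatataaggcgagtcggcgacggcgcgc
Sdf2l1 (chr16:17132384-17132633, minus strand): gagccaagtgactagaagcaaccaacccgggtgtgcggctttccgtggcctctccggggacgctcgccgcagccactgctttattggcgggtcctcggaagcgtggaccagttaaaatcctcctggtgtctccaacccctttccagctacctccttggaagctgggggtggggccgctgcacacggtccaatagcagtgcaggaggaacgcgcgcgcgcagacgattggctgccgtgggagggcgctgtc

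The ERSE letters were found in 37 of 32851 windows of all genes, 0.113%, and in those of 7 of the 31 genes. The sites are set one above the other in the motif's own orientation, so that the variable middle can be compared.
Hspa5: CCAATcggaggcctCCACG
Creld2: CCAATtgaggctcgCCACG
Dnajc3: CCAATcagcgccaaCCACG
Pdia6: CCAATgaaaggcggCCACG
Hsp90b1, far site: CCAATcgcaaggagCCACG
Hsp90b1, near site: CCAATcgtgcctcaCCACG
Calr: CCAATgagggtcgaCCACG
Canx: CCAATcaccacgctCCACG
The 7 genes with a site had changes from -0.44 for Creld2 to 0.07 for Canx, with a median of -0.14, and 1 of them fell. Hsp90b1, the gene with a pair of sites, had a change of -0.13. The 4 tested folding genes with a window and no match, Dnajb9, Dnajb11, Pdia3 and Sdf2l1, had changes from -0.70 to -0.01, and 1 of them fell. The window of Sdf2l1 held CCACG, the end of the motif, without the full letters. A window without a match only lacks these exact letters, and the part of the sites in the changes was not tested. The shorter variant ERSE-II, ATTGGNCCACG, which shares its CCACG end with ERSE, lay in the window of Herpud1 and in 0.0304% of all windows. CCACG alone, which every ERSE and ERSE-II match contains, was in the windows of 21 of the 31 genes and in 28.3% of all windows. TGACGTG, the core of a further XBP1 and ATF6 element, lay in that of Hspa5 and in 1.65% of all windows.

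**Figure D2:**
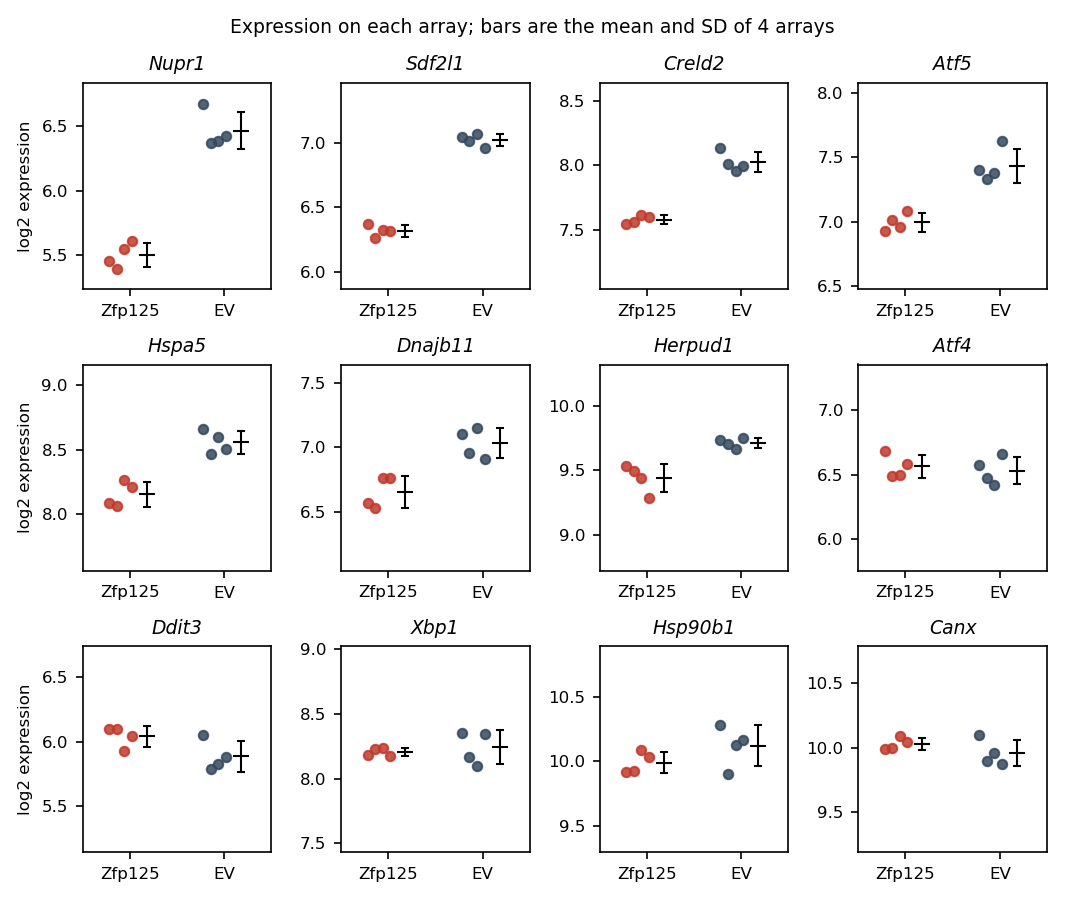
Expression on the log2 scale on each of the 8 arrays for 12 genes, with Zfp125 cells left of EV cells, points for arrays and bars for the mean and SD of 4 arrays; every panel spans the same range. The groups are apart for Nupr1 (gap 0.77), Sdf2l1 (0.59), Creld2 (0.34), Atf5 (0.24), Hspa5 (0.20), Dnajb11 (0.15) and Herpud1 (0.13), and overlap for Atf4, Ddit3, Xbp1, Hsp90b1 and Canx.

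The 3 genes of ER-associated degradation all had changes below 0, as did 50.8% of all genes, and 0 passed the test (limma). Of them 1 was lower at an unadjusted p under 0.05, against 5.5% of all genes. Herpud1, a membrane protein of the degradation complex, had 9.53, 9.49, 9.44 and 9.29 in Zfp125 cells, against 9.73, 9.70, 9.66 and 9.75 in EV cells. Every Zfp125 array was below every EV array, with a change of -0.27 ± 0.09 (adjusted p = 0.219, limma). With a trended, robust prior it was called (adjusted p = 0.0289). Edem1, a lectin that takes misfolded glycoproteins out of folding, had 7.004, 7.41, 7.35 and 7.38 in Zfp125 cells and 7.73, 7.33, 7.44 and 7.66 in EV cells. Its low value in Zfp125 replicate 1 lay apart from the other 3, and the groups overlapped. The change was -0.26 ± 0.12 (adjusted p = 0.459), and -0.20 in the second cluster. Sel1l, the scaffold of the HRD1 ubiquitin ligase, had a change of -0.06 ± 0.08.

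The sensors and their factors showed small changes, and 0 of 4 passed (limma; 0 at an unadjusted p under 0.05). Xbp1 had 8.20 ± 0.03 in Zfp125 cells and 8.24 ± 0.13 in EV cells, a change of -0.04 ± 0.09 (95% interval -0.23 to 0.16). Eif2ak3, the gene of PERK, had a change of -0.09 ± 0.08, and Ern1, the gene of IRE1, of -0.14 ± 0.10. Atf6 had a change of 0.11 ± 0.10. These are levels of mRNA: a gene-level value on this array says nothing of the splicing of Xbp1, the cleavage of ATF6 or the phosphorylation of PERK and eIF2.

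Nupr1 showed the largest change of the 33 genes. It encodes a small nuclear protein of the stress response and is a known target of ATF4. Its levels were 5.45, 5.40, 5.55 and 5.61 in Zfp125 cells, against 6.68, 6.38, 6.38 and 6.43 in EV cells. The nearest arrays of the groups were 0.77 apart. Nupr1 fell by 0.96 ± 0.10, a 1.95-fold lower level (95% interval of the change -1.17 to -0.75; adjusted p = 2.98e-04, limma), and was the 13th of all genes by p. The call held in each of 18 alternatives (adjusted p up to 0.0324), and the change lay between -0.893 and -0.998 when 1 array was left out.

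Atf5 encodes a transcription factor whose translation rises when eIF2 is phosphorylated. It had 6.93, 7.01, 6.96 and 7.09 in Zfp125 cells, against 7.40, 7.33, 7.38 and 7.63 in EV cells. Atf5 fell by 0.44 ± 0.09, a 1.36-fold lower level (adjusted p = 0.0433, limma), with no overlap of the groups. The call was lost in each of the 8 omissions of 1 array, with changes of -0.37 to -0.47 and adjusted p-values of 0.0598 to 0.137. With all 8 arrays it was also lost without variance moderation (adjusted p = 0.118), with all clusters tested (0.139) and with the replicate number as a block (0.078).

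The other 11 genes of the ATF4 axis did not pass. Atf4 itself had 6.68, 6.49, 6.50 and 6.58 in Zfp125 cells and 6.57, 6.48, 6.42 and 6.66 in EV cells, a change of 0.03 ± 0.09 (95% interval -0.17 to 0.23). Ddit3, the gene of CHOP, had 6.10, 6.09, 5.93 and 6.04 in Zfp125 cells and 6.05, 5.78, 5.83 and 5.88 in EV cells. It had the highest change of the 33, 0.16 ± 0.09 (95% interval -0.04 to 0.35; adjusted p = 0.587, limma), and its arrays overlapped. Trib3, a pseudokinase that binds AKT and ATF4, had a change of 0.10 ± 0.10, and Ppp1r15a, the GADD34 subunit that brings phosphatase to eIF2, of 0.05 ± 0.10. Chac1, an enzyme that degrades glutathione, had -0.06 ± 0.11, and Sesn2, a leucine sensor that restrains mTORC1, had 0.01 ± 0.11.

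Genes of amino acid and one-carbon metabolism lay close to 0, except that the groups of Psat1 did not overlap. Psat1, the transaminase of serine synthesis, had 7.06, 7.02, 6.92 and 7.10 in Zfp125 cells, against 7.24, 7.13, 7.18 and 7.26 in EV cells. The nearest arrays were 0.03 apart, and the change of -0.18 ± 0.09 did not pass (adjusted p = 0.481, limma). Phgdh, the first enzyme of serine synthesis, had a change of -0.01 ± 0.14 and asparagine synthetase, Asns, of -0.01 ± 0.10. The mitochondrial folate enzymes Shmt2 and Mthfd2 had changes of 0.03 ± 0.08 and 0.03 ± 0.10. Over the 13 genes of the axis, 6 had a change below 0 (50.8% of all genes) and 7 above, and the median was 0.01. At an unadjusted p under 0.05, 2 were lower (5.5% of all genes) and 0 higher (5.43%).

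ATF4 is known to bind C/EBP-ATF elements as a dimer with C/EBP proteins; TGATGNAAN was searched for on both strands. The window of Nupr1, the gene with the largest change, held it on the strand opposite to the gene and is shown for that reason, with the fixed letters in capitals.
Nupr1 (chr7:126625471-126625720, minus strand): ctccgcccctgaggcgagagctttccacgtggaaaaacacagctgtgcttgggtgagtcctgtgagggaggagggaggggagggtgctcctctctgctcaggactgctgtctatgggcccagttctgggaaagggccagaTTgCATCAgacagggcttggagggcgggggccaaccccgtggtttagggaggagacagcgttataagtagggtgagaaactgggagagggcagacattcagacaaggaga
The letters were present in the windows of 4 of the 31 genes and in 3.44% of all windows. In the motif's own orientation the 4 sites were:
Nupr1: TGATGcAAt
Herpud1: TGATGcAAc
Chac1: TGATGcAAc
Asns: TGATGaAAc
The 4 genes had changes of -0.96 for Nupr1, -0.27 for Herpud1, -0.06 for Chac1 and -0.01 for Asns. No match says only that these letters are not in a window.

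Across arrays the folding genes moved partly together. The median deviation of the 13 tested genes from each gene's mean over the 8 arrays was -0.14, -0.17, -0.08 and -0.00 on the Zfp125 arrays, against 0.23, -0.01, 0.08 and 0.07 on the EV arrays. These medians overlapped between the groups, since Zfp125 replicate 4 (-0.002) lay above EV replicate 2 (-0.012). EV replicate 1 was the highest EV array for 9 of the 13, and EV replicate 2 the lowest for 6. Of the 13 lists described here, EV replicate 1 had the highest EV median in 9, within and outside the ER. Among them were other degradation genes (0.12), ER translocation (0.10) and aminoacyl-tRNA synthetases (0.15). Cytosolic heat shock genes (0.10), mitochondrial chaperones and proteases (0.09) and the genes around ATF6 and CREB3 (0.08) were others. EV replicate 4 had the highest EV median in 4, which were ER-associated degradation (0.18), the sensors (0.10), the ATF4 axis (0.11) and other ATF4 targets (0.03). Without EV replicate 1 the median change of the folding genes was -0.08, and without EV replicate 2 it was -0.20. In the ATF4 axis the medians of the arrays also overlapped, from -0.06 to 0.04 in Zfp125 cells and from -0.02 to 0.11 in EV cells.

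**Figure D3:**
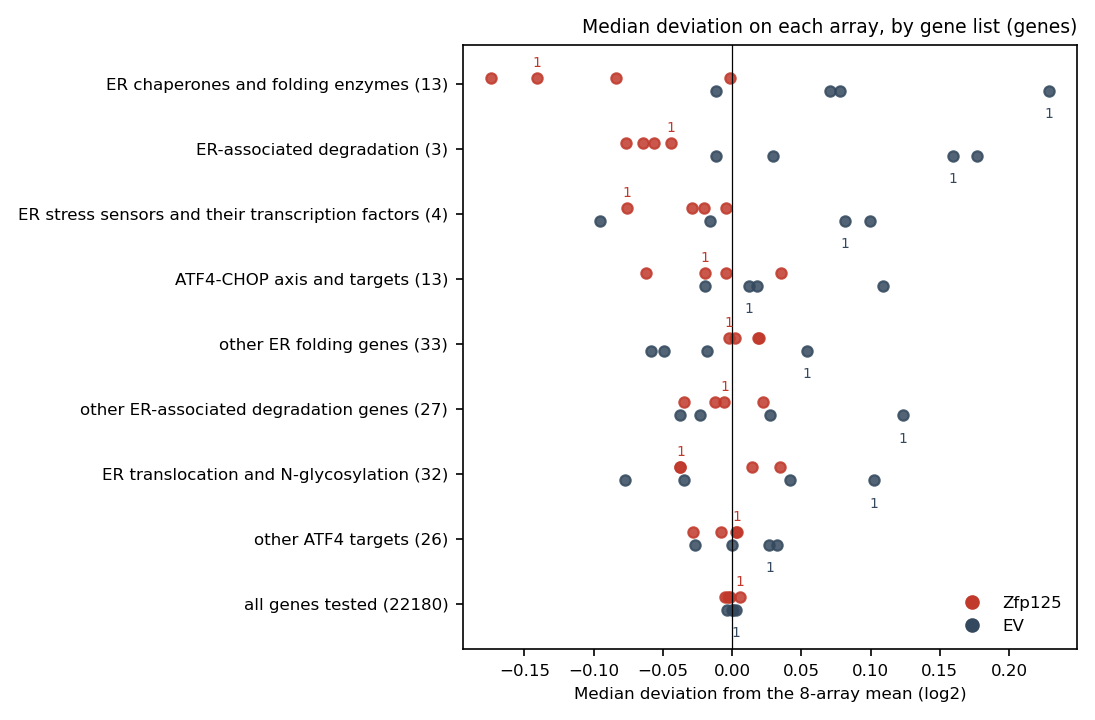
Median deviation on each array from the 8-array mean of each gene, on the log2 scale, with Zfp125 arrays above EV arrays for each list, the number of genes in parentheses and the numeral 1 beside replicate 1 of each group. For the ER chaperones the Zfp125 arrays lie at -0.17 to -0.00 and the EV arrays at -0.01 to 0.23, with EV replicate 1 at 0.23; medians of all genes stay within 0.01 of 0.

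Further genes of these pathways were taken from 9 lists with 203 measured genes. Among 26 other ATF4 targets 2 fell (0.636% of all genes) and 0 rose (0.446%). At an unadjusted p under 0.05, 5 were lower (5.5% of all genes) and 2 higher (5.43%). Cth, which makes cysteine from cystathionine, had 6.25, 6.20, 6.26 and 6.19 in Zfp125 cells, against 6.86, 6.65, 6.66 and 6.95 in EV cells, and fell by 0.56 ± 0.10 (adjusted p = 0.0126, limma). Ddit4, which encodes the mTORC1 inhibitor REDD1, had 7.12, 7.30, 7.09 and 6.91 in Zfp125 cells, against 7.57, 7.72, 7.44 and 7.62 in EV cells, and fell by 0.48 ± 0.10 (adjusted p = 0.0444). Both had groups that did not overlap. The call of Cth held in all 8 omissions of 1 array, whereas that of Ddit4 held only without Zfp125 replicate 2 (adjusted p up to 0.126 in the others). Cth was not called without variance moderation (adjusted p = 0.0844) or with all clusters tested (0.0772), and neither was Ddit4 (0.166 and 0.159), which was also lost with the replicate block (0.0657). Atf3, a factor that ATF4 induces, differed by 0.25 ± 0.09 and did not pass (adjusted p = 0.306). Over the 26 genes the median was 0.01.

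Of 33 other ER folding genes 0 were called by limma, with 4 lower and 4 higher at an unadjusted p under 0.05 and a median of 0.03. Fkbp11, an ER prolyl isomerase, had a change of -0.50 ± 0.12 (adjusted p = 0.0657), the thioredoxin-domain gene Txndc11 of -0.32 ± 0.10 and the prolyl isomerase Fkbp9 of 0.27 ± 0.09. Among 27 other degradation genes 0 were called, with 2 lower and 1 higher unadjusted: Nploc4, a VCP cofactor, at -0.25 ± 0.09, Derl2 of the translocation channel at -0.20 ± 0.09 and the lectin Os9 at 0.31 ± 0.09. The 32 genes of ER translocation and N-glycosylation gave 0 calls, with 6 lower and 3 higher unadjusted (5.5% and 5.43% of all genes). Of the 32, 21 had a change below 0 and 11 above (50.8% of all genes were below 0). There the translocon subunit Sec61a1 had a change of 0.38 ± 0.09 (adjusted p = 0.0846), the oligosaccharyltransferase gene Tusc3 of 0.30 ± 0.09 and the signal peptidase gene Sec11c of -0.51 ± 0.15. These lists held changes in both directions, and their medians lay between -0.02 and 0.03.

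The lists of upstream genes and of mitochondrial genes gave 0 calls. Of all genes, 5.5% were lower and 5.43% higher at an unadjusted p under 0.05. Of 18 aminoacyl-tRNA synthetase genes, which ATF4 is known to induce in part, 0 were called, with 3 lower unadjusted (Farsb at -0.22 ± 0.10, Hars at -0.20 ± 0.09 and Vars at -0.21 ± 0.10). Of 16 genes of eIF2, its kinases, exchange factor and phosphatase 0 were called, with 2 lower and 1 higher unadjusted: Ppp1cc at -0.35 ± 0.13, Eif2b2 at -0.24 ± 0.10 and Eif2b1 at 0.21 ± 0.09. Of 14 genes around ATF6 and the CREB3 factors 0 were called and 1 was higher unadjusted, Creb3l2, an ER-anchored factor, at 0.33 ± 0.08 (adjusted p = 0.0891). Creb3l1 had 0.19 ± 0.12 and Ern2 0.14 ± 0.11. Mitochondrial chaperones and proteases, 15 genes, gave 0 calls and 2 lower unadjusted, the protease Lonp1 at -0.38 ± 0.09 (adjusted p = 0.061) and Grpel2 at -0.34 ± 0.10, with Hspd1 at -0.16 ± 0.10.

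Of 22 cytosolic heat shock genes 1 rose (0.446% of all genes) and 0 fell (0.636%). At an unadjusted p under 0.05, 1 was lower (5.5% of all genes) and 2 were higher (5.43%). Cryab, a small heat shock protein, had 7.35, 7.34, 7.20 and 7.37 in Zfp125 cells, against 6.97, 6.97, 6.69 and 6.76 in EV cells, and rose by 0.47 ± 0.10 (adjusted p = 0.0361, limma). The groups did not overlap, and the call was lost in 6 of 8 omissions of 1 array (adjusted p up to 0.116), holding without EV replicate 1 or 2. It was also lost without variance moderation (adjusted p = 0.127), with all clusters tested (0.13), with the mean of a gene's clusters (0.0785) and with the replicate block (0.0653). Hspb1, a second small heat shock protein, had a change of 0.41 ± 0.11 (adjusted p = 0.106), and Hspb8 one of -0.23 ± 0.09.

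**Figure D4:**
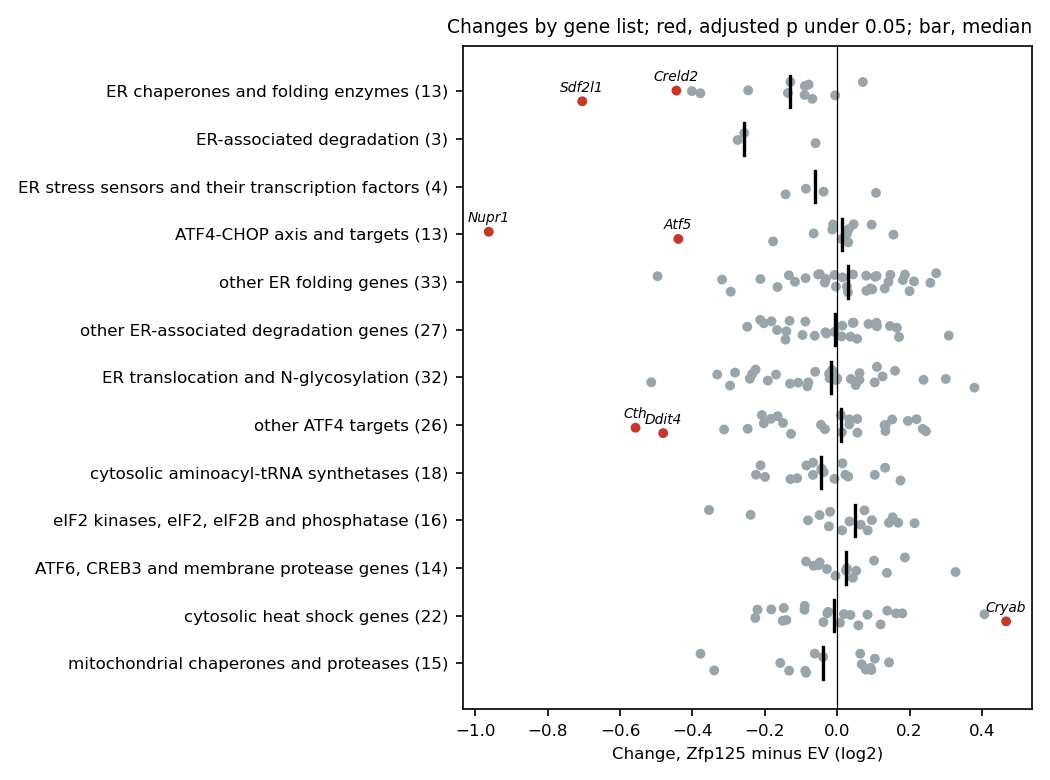
Changes, Zfp125 minus EV on the log2 scale, of the tested genes of each role and of 9 lists of related genes, with the number of genes in parentheses; points are genes, red marks an adjusted p under 0.05 and the black bar the median. Named points are Sdf2l1, Creld2, Nupr1, Atf5, Cth (-0.56) and Ddit4 (-0.48) on the lower side and Cryab (0.47) on the higher side, and the list medians lie between -0.26 and 0.05.

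Some markers of cell type moved beside these genes. Of 12 measured hepatocyte markers 4 fell (0.636% of all genes) and 0 rose (0.446%). Fgb fell by 1.21, Serpina1c by 0.67, Apoa1 by 0.61 and Alb by 0.48 (adjusted p = 0.00122 to 0.0492, limma). Of the 12, 1 marker lay below the median level of all clusters. At an unadjusted p under 0.05, 6 were lower (5.5% of all genes) and 0 higher (5.43%). The further ones were Cps1 at -0.84 ± 0.20 and Hnf4a at -0.38 ± 0.09. Over the 12 markers 9 had a change below 0 and 3 above, Asgr1 at 0.12, Ttr at 0.08 and Krt8 at 0.06. The summed level of the hepatocyte list (log2 of the summed linear values) was 13.996 to 14.04 in Zfp125 cells and 14.20 to 14.34 in EV cells. Of 31 measured markers of cholangiocytes, fibroblasts and stellate cells, leukocytes and endothelial cells 0 were called by limma, and at an unadjusted p under 0.05 there were 1 lower and 2 higher. For 5 cholangiocyte markers the summed level was 10.38 to 10.60 in Zfp125 cells and 10.22 to 10.38 in EV cells, with 2 markers below the median level. For 10 fibroblast and stellate cell markers it was 7.86 to 7.995 in Zfp125 cells and 7.92 to 7.96 in EV cells, with 4 below it. For 9 leukocyte markers it was 8.21 to 8.31 in Zfp125 cells and 8.38 to 8.52 in EV cells, with 5 below it. For 7 endothelial markers it was 7.04 to 7.21 in Zfp125 cells and 7.19 to 7.23 in EV cells, with 3 below it. The hepatocyte and leukocyte sums were lower on every Zfp125 array than on any EV array, and the fibroblast and endothelial ranges overlapped. The cholangiocyte sum was higher on every Zfp125 array, with 10.378 on the lowest of them and 10.377 on the highest EV array. In such sums the brightest genes weigh most. Alb and Ttr, the brightest hepatocyte markers, had changes of -0.48 ± 0.09 and 0.08 ± 0.10, and the median change of the hepatocyte list was -0.25. Cd14, the brightest leukocyte marker, had a change of -0.31 ± 0.08, while the median change of that list was -0.00. Sox9, the brightest cholangiocyte marker, had a change of 0.28 ± 0.09. Among the other cholangiocyte markers Krt19 (-0.14) and Cftr (-0.24) had changes below 0, and Krt7 and Epcam (each 0.03) above. The part of these shifts in the results on stress response genes was not tested.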

How the data were processed

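Total RNA of AML12 cells was amplified, labelled as cDNA and hybridised to arrays, per the labels' protocols. The deposited values are log2 expression values per transcript cluster; their range shows the log2 scale. Per the submitters' processing notes, the tools were Transcriptome Analysis Console and Affymetrix Expression Console. For versions, background correction and normalization nothing is stated there. The arrays were analysed as deposited. Array medians were 4.32 to 4.37, correlations between arrays 0.977 to 0.984, and 0 arrays were identical; the number of arrays limits the precision.

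Clusters with 1 symbol were named through the platform annotation, updated through Entrez identifiers to RefSeq (GRCm38.p6; 23328 of 23521 matched), and the brightest cluster of a gene was used. Groups were compared with limma 3.58.1 in R 4.3.3 (lmFit, eBayes, two-sided, Benjamini-Hochberg over 22180 genes, threshold 0.05). In a self-test with 200 of 22180 genes shifted in the Zfp125 against EV comparison, 52.2% of shifts of 0.5, 97% of shifts of 1 and 100% of shifts of 2 were recovered, with 8 false among 174 calls. Every member was named, and of each related list the called genes and the 3 with the smallest p. The members and lists were chosen with earlier results of these data known. Of 221 listed related genes, 18 were left out, 9 of which lie on a cluster with several symbols. Alternatives covered normalization, filters, moderation, array weights, choice of cluster, a replicate block and the omission of single arrays. Figures used matplotlib 3.10.9.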

Additional observations from a re-analysis of the deposited data

Results flagged for a closer look

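In 7 of 66 groups of 4 arrays, 1 array lay far from the other 3 for a gene of the response; chance flags about 1 in 20 groups. In Zfp125 cells, Edem1 was low on replicate 1 (7.004, others 7.35 to 7.41), Trib3 high on replicate 1 (5.70, others 5.53 to 5.55), Phgdh low on replicate 1 (6.63, others 6.91 to 6.95) and Mthfd2 high on replicate 4 (5.12, others 4.90 to 4.93). In EV cells, Calr was high on replicate 1 (10.49, others 10.28 to 10.31), Shmt2 high on replicate 1 (7.40, others 7.25 to 7.27) and Hyou1 low on replicate 2 (7.92, others 8.03 to 8.04). Replicate 1 of one group or the other held 5 of the 7 values, and none of the 7 belonged to a gene that passed the test.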

How the results depend on the processing

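The count of 240 called genes was 26 without variance moderation, 498 with a trended, robust prior, 405 among genes above the median level, 61 with all clusters tested, 152 with the replicate number as a block and 109 to 187 when 1 array was left out. The count of 4 called stress response genes was 7 with the trended, robust prior and 6 among genes above the median level. It was 5 with quantile normalization, 5 above the 25th percentile level and 3 without variance moderation. It was 2 with all clusters tested, 2 with the replicate block and 2 to 3 when 1 array was left out. Atf5 was lost in each of these smaller counts. Creld2 was lost in them too, but for the omission of EV replicate 3 and the fit without variance moderation. The trended prior added Hspa5, Dnajb11 and Herpud1. Dnajb11 was also called among genes above the median level (adjusted p = 0.0388, limma). Hspa5 was also called with quantile normalization (adjusted p = 0.0494) and above the 25th percentile or median level (0.0403 and 0.0191). Of 594 recomputed changes of single genes, 567 kept their side of the threshold, 20 lost a call, 7 gained one, and 0 that were called changed sign. Replicate numbers did not pair the samples: same-number deviations correlated at -0.05 to 0.04 and others at -0.06 to 0.09. Median centring moved the median change of all genes by less than 0.01. The arrays hold no detection calls here, so signal over background was not used.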
